A study of Homo sapiens with 45 samples.

Results

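Glucose use and the response to low oxygen were followed through 32 genes in human cells that pass from neuromesodermal progenitors to spinal motor neurons. The 32 genes were chosen by name, and all were found among the 58233 genes of the deposited tables. They are 4 transporters of glucose and lactate, 11 genes of upper glycolysis, 6 of lower glycolysis, 4 of pyruvate and lactate handling and 7 genes that respond to hypoxia. RNA was sequenced in 45 libraries, 3 biological replicates on each of 15 days (days 0 to 15, without day 3). All cells derive from H9, 1 line of human embryonic stem cells, so the libraries describe a single genotype. Before day 0 all cells were held in 3 µM CHIR99021 (a WNT pathway agonist), 5 ng/ml bFGF, 10 µM SB431542 and 2 µM DMH1 (inhibitors of TGF-beta and BMP receptors). The day 0 libraries are the labelled control, and the libraries of days 1 to 15 had 100 nM retinoic acid (RA) and 500 nM SAG, an agonist of the hedgehog pathway. Cells were also replated with a dissociation enzyme on day 0, with 10 µM ROCK inhibitor for 48 h, so the effects of RA, SAG, replating and time cannot be told apart between day 0 and day 1.

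Glycolysis splits glucose into pyruvate in the cytosol and yields ATP without oxygen, and several of its steps are served by isozymes that differ between tissues. Under low oxygen the hypoxia-inducible factors (HIF), pairs of an alpha subunit and ARNT, escape prolyl hydroxylation by the EGLN enzymes and degradation through VHL, and raise glucose transporters, glycolytic enzymes and genes such as VEGFA, CA9 and BNIP3. Pluripotent and proliferating cells are known for strong glycolysis, and neurons for a greater use of oxidative phosphorylation.

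Levels of one gene between libraries are given in CPM (counts scaled to the library's total after adjustment by edgeR's TMM factors). Levels of different genes are compared only in TPM (transcripts scaled to the total), which allow for gene length. A level is a mean ± SD of 3 libraries, and a log2 change carries the standard error (SE) of the fit. A change was called where edgeR's quasi-likelihood test gave a Benjamini-Hochberg adjusted p under 0.05 over the 19436 genes tested. Of the 32 genes, 31 passed the filter on low counts and CA9 did not. The labels call the replicates biological but do not give their cultures, so p-values measure the spread between these libraries.

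Totals ran from 22835823 to 39066247 counts per library. The expected cell types were checked by their markers. The 6 neuromesodermal markers summed to 1799 CPM on day 0 and 0.642 CPM on day 15, the 6 neural progenitor markers to 812 CPM on day 0 and 4011 CPM on day 1, and the 6 neuron markers to 372 CPM on day 1 and 4703 CPM on day 9. The motor neuron markers peaked at 101 CPM on day 8. In bulk RNA, fewer cells of a type and less RNA per cell cannot be told apart.

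Over all days, 30 of the 31 genes tested changed (ANKRD37 had an adjusted p of 0.58), beside 91.5% of all genes tested, so a change over time was the rule for the whole transcriptome. The 32 genes together held 1.39% of all TPM on day 0, 1.02% on day 8 and 0.87% on day 15. The genes of lower glycolysis made up most of this, with 0.849% of TPM on day 0 and 0.544% on day 15. Upper glycolysis held 0.233% and 0.173% on those days. The 7 hypoxia genes held 0.00588% on day 0 and 0.00952% on day 15, but they did not move together. EGLN3 had day means from 1.83 to 39.5 TPM, with its highest CPM on day 14. BNIP3 had day means from 16.1 to 33.4 TPM, with its highest CPM on day 0. The sum is therefore no measure of the group as a whole.

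**Figure D1:**
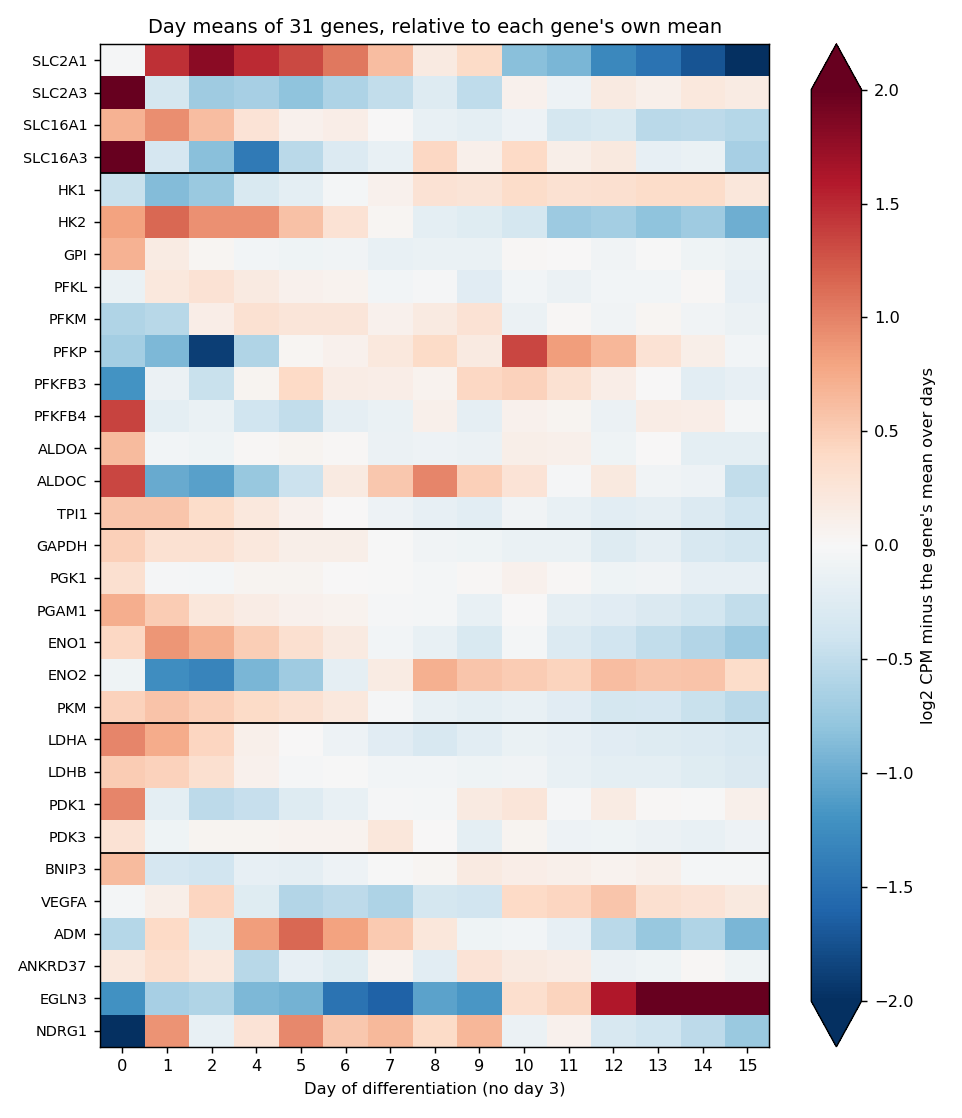
Mean level of 31 of the 32 genes on each sampled day (columns), as log2 CPM minus the gene's own mean over days, with black lines between the 5 roles (CA9, at or near 0, is left out). SLC2A1, HK2 and ENO1 were high early and low late, SLC2A3 and SLC16A3 stood apart on day 0, and EGLN3 was high only from day 12 onward; the colour scale ends at 2 log2 units either way.

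The first comparison, day 1 against day 0, had 23 of 31 genes called, 8 higher and 15 lower, beside 61.7% of all genes tested (30.1% higher, 31.7% lower). From day 1 to day 4 it was 20 of 31, 4 higher and 16 lower, beside 47.2% of all (24.4% higher, 22.8% lower). From day 4 to day 8, when neurons formed, 9 rose and 12 fell, beside 53.2% of all genes (27.1% higher, 26% lower). The median log2 change of the 31 genes was -0.17, -0.20 and -0.12 in these comparisons, beside 0, 0.01 and 0 for all genes tested. The comparisons share the libraries of days 1 and 4. On the TPM scale, tested with limma, the splits were less one-sided. From day 1 to day 4, 9 were higher and 11 lower of 20 called, beside 43% of all genes called. From day 4 to day 8, 10 were higher and 8 lower of 18, beside 48.5% of all. The median log2 change of all 18075 genes tested was also higher on that scale, at 0.07 and 0.08.

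Between day 9 and day 10, the step with the highest share of calls among all genes after day 4, 12 rose and 3 fell, beside 29.6% of all genes called (15.9% higher, 13.7% lower). From day 8 to day 14, 3 rose and 14 fell, beside 43.3% of all (21.6% in either direction). From day 9 to day 15, 3 rose and 18 fell, beside 47% of all genes (22% higher, 25% lower). The median log2 change was 0.07, -0.16 and -0.22 in these, beside 0, 0 and -0.01 for all genes. From day 9 to day 15 the 6 neuron markers also all fell (summed 4425 to 4950 CPM on day 9 and 2443 to 2967 CPM on day 15), as did 5 of 6 cell cycle markers (1752 to 1899 and 1416 to 1586 CPM). Of the 6 neural progenitor markers 4 fell and 1 rose (3082 to 3166 and 1443 to 1697 CPM), and 4 of 6 glial markers rose (70.8 to 76.8 and 204 to 319 CPM). The part of these cell types in the members' falls was not tested.

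The 3 libraries of the 2 days did not overlap for 27 of the 31 genes between days 0 and 1, beside 67.8% of all genes, for 19 between days 1 and 4 (54.2% of all) and for 20 between days 4 and 8 (58.6%). The same held for 17 between days 9 and 10 (39.3%), for 22 between days 8 and 14 (52.3%) and for 23 between days 9 and 15 (53.9%). Between neighbouring sampled days most calls of the members fell in a few steps, which also had the highest shares of calls among all genes. After the 23 called from day 0 to day 1, 16 were called from day 1 to 2 (23.3% of all genes) and 17 from day 2 to 4 (35.5%). The next 4 steps, up to day 8, had 5, 7, 5 and 7 calls, beside 6.72%, 8.43%, 6.33% and 9.78% of all genes. The step to day 9 had 6 calls (21.5% of all) and that to day 10 had 15 (29.6%). The 5 steps after day 10 had 3, 4, 2, 0 and 3 calls, beside 5.55%, 3.41%, 3.52%, 0.314% and 4.05% of all genes. In the step with 0 calls by edgeR, from day 13 to day 14, 7 of the 31 genes had an unadjusted p under 0.05.

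The transporters exchanged places at the start. SLC2A3 (chr12:7919230-7936275 on GRCh38), which encodes the high-affinity glucose transporter GLUT3, was at 1354, 1378 and 1188 CPM in the day 0 libraries and at 74.1, 75.1 and 75.5 CPM on day 1. Every day 0 library stood far above every later one, and the fall was 17.5-fold (log2 change -4.13 ± 0.07, adjusted p = 3.3e-35). SLC2A1 (chr1:42925375-42959176), which encodes GLUT1, the transporter of most dividing cells, went the other way, from 313, 307 and 292 CPM on day 0 to 845, 847 and 864 CPM on day 1. The groups did not overlap, and the rise was 2.80-fold. In TPM, SLC2A3 made up 82.7% ± 0.83 of the pair on day 0, 8.95% ± 0.62 on day 1 and 5.19% ± 0.086 on day 2.

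SLC2A1 then fell in steps. It reached 1075 CPM on day 2, was at 877, 796 and 947 CPM on day 4, and at 349, 336 and 363 CPM on day 8 (log2 change -1.32 ± 0.08, adjusted p = 5.9e-17). On day 9 it stood at 369, 409 and 428 CPM and on day 10 at 180, 190 and 149 CPM, with no overlap (log2 change -1.22 ± 0.08, adjusted p = 4.6e-14). By day 15 it was at 74.2, 73.6 and 78.0 CPM, 5.34-fold below day 9 and the lowest of all days. Each of the 3 libraries on day 15 lay below every earlier library.

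SLC2A3 rose again while SLC2A1 fell. From 60.8 ± 0.81 CPM on day 4 it reached 80.2 ± 3.1 on day 8, then 102 ± 4.8 on day 10 and 107 ± 12 on day 15, still far below the 1307 ± 104 CPM of day 0. The step from day 9 to day 10 was from 68.5, 69.2 and 65.2 CPM to a mean of 102 ± 4.8 CPM, without overlap (log2 change 0.60 ± 0.06, adjusted p = 6e-09). Its TPM share of the pair was 14.9% ± 1.5 on day 9, 38.6% ± 4.4 on day 10 and 60.0% ± 2.8 on day 15. GLUT3 is known as the main glucose transporter of neurons. The 6 neuron markers all rose from day 4 to day 8 and all fell from day 9 to day 10 and to day 15. The part of neurons in the course of SLC2A3 was not tested. SLC2A3 shares reads with the near-identical SLC2A14, at 20.3 TPM on day 0 and 1.79 TPM on day 15, and with pseudogenes that took 24.9% of their joint TPM in the median library. With the pseudogenes added, the SLC2A3 share on day 8 was 25.8% in place of 19.98%.

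**Figure D2:**
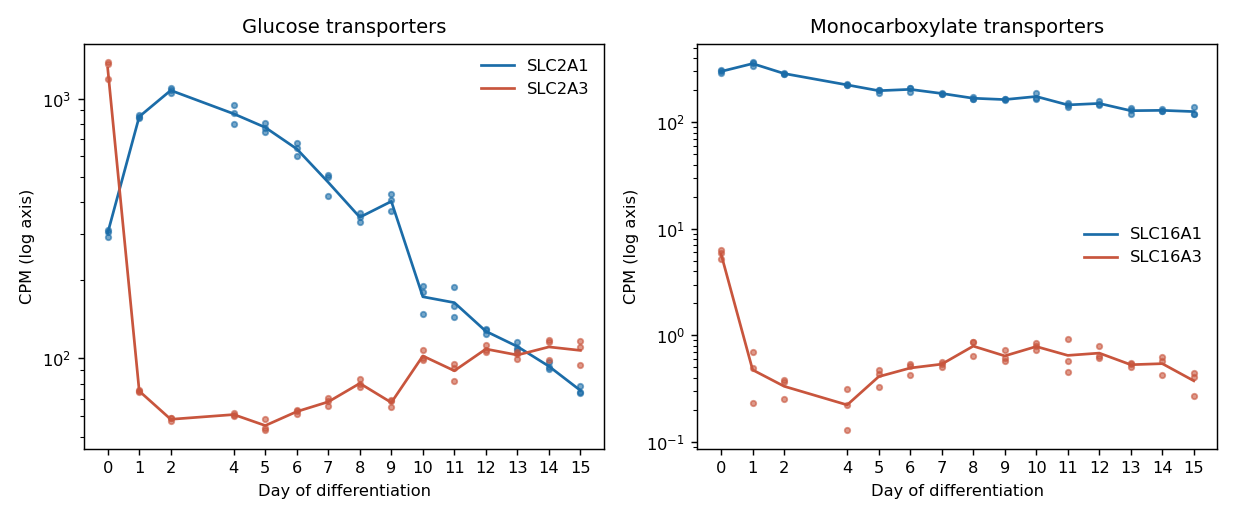
CPM (log axes) by day for the glucose transporters SLC2A1 and SLC2A3 (left) and the monocarboxylate transporters SLC16A1 and SLC16A3 (right); points are libraries, 3 per day, and lines join the day means. SLC2A3 dropped from 1307 to 74.9 CPM between days 0 and 1 while SLC2A1 rose from 304 to 852 CPM, and the lines for SLC2A1 and SLC2A3 crossed again after day 13.

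The monocarboxylate transporters carry lactate and pyruvate across the membrane. SLC16A1 (MCT1) was at 307, 303 and 291 CPM on day 0, 365, 361 and 340 CPM on day 1 and 224 ± 2.7 CPM on day 4, 1.58-fold below day 1. It went on falling to 126 ± 11 CPM on day 15. SLC16A3 (MCT4), the lactate exporter known to respond to hypoxia, was at 6.30, 5.87 and 5.17 CPM on day 0 and at 0.232, 0.498 and 0.692 CPM on day 1, a 12.4-fold fall. No library after day 0 passed 1 CPM, and its share of the pair's TPM was 3.23% ± 0.67 on day 0 and 0.224% ± 0.094 on day 1.

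Hexokinase traps glucose in the cell. HK1 held most of the TPM of HK1 and HK2 on every day, and its share grew from day 1 to day 15. HK2, the isozyme of muscle and of many growing cells, rose from 73.6, 66.4 and 65.7 CPM on day 0 to 86.8, 84.0 and 92.5 CPM on day 1, without overlap (log2 change 0.36 ± 0.05, adjusted p = 1.4e-08). It was then at 75.4, 74.5 and 73.7 CPM on day 4, at 35.2, 33.0 and 34.9 CPM on day 8 and at 20.1, 20.9 and 19.1 CPM on day 15. The libraries of days 1, 4, 8 and 15 did not overlap with one another. The fall from day 4 to day 8 was 2.17-fold (log2 change -1.12 ± 0.05, adjusted p = 2.4e-21). HK1, the hexokinase of brain, moved the opposite way, from 74.7, 75.7 and 75.2 CPM on day 1 to 117, 107 and 108 CPM on day 4 and 171, 163 and 171 CPM on day 8. Both steps were called (log2 change 0.56 ± 0.04 and 0.60 ± 0.04). In TPM, HK1 made up 73.7% ± 0.85 of the pair on day 0, 60.6% ± 2.1 on day 1, 90.3% ± 0.33 on day 8 and 94.0% ± 0.49 on day 15.

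HK2 has 2 promoter windows in RefSeq. They are shown because HK2 was lower on day 15 than on day 1, and lower on odd than on even days after day 9. Capitals mark ACGTG on either strand (read as CACGT on the other), the core of the HIF binding element, which overlaps the E-box CACGTG that MYC family proteins also bind. The first stretch is chr2:74833877-74833980 and the second chr2:74834920-74835169, both on the plus strand of GRCh38.p14, upstream of each start and outside exons of GENCODE 29.
HK2 first start: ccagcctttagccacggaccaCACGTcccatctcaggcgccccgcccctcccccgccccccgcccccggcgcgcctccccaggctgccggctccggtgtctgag
HK2 second start: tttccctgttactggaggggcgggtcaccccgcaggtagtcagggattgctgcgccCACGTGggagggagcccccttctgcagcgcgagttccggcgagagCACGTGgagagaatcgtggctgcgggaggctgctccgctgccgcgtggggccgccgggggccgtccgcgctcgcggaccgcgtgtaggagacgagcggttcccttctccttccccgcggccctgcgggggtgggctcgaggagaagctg
The first window runs on to the start, and its remainder, part of which is an exon of HK2 in GENCODE 29, is not printed. That remainder holds a second match, 48 bases before the start, besides the printed one at 229 bases. The second window holds the E-box form at 2 places, which begin 194 and 149 bases before the start. Of all RefSeq windows of 250 bases, 18.5% hold the 5 letters on either strand, and 21.6% of the windows of genes tested do. The RefSeq windows cover 28 of the 32 genes. By window, 21 of their 54 held a match (38.9%), beside the 21.6% above. By gene, a match in at least 1 window was found for 18 of the 28 (64.3%), beside 28% of the tested genes that have windows. Genes differ in how many windows are listed. A match is a string of letters and not a measured site.

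Phosphofructokinase commits the sugar to glycolysis. PFKM, the muscle form, rose from 125, 127 and 127 CPM on day 1 to 221, 209 and 253 CPM on day 4 (log2 change 0.85 ± 0.06, adjusted p = 7.2e-15), the largest rise of the members between these days. It fell from 227, 223 and 227 CPM on day 9 to 169, 180 and 160 CPM on day 10, again without overlap. PFKP, the platelet form that is also found in brain, was at its lowest on day 2, at 7.72, 8.37 and 8.04 CPM. It reached 38.9, 42.6 and 34.1 CPM on day 8, and went from 34.1, 31.99 and 34.7 CPM on day 9 to 89.1, 53.8 and 81.9 CPM on day 10 (2.23-fold, adjusted p = 4.4e-05). The day 10 libraries differed among themselves by more than those of day 9, and by day 15 PFKP was back at 28.5 ± 8.4 CPM. The TPM share of PFKP among the 3 genes was 3.08% ± 0.92 on day 2, 10.2% ± 0.91 on day 9, 22.5% ± 4.6 on day 10 and 10.8% ± 2.7 on day 15. PFKL, the liver form, had day means between 104 and 148 CPM, and its share lay below that of PFKM on every day in the means.

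The PFKFB enzymes make and break fructose 2,6-bisphosphate, the allosteric activator of phosphofructokinase. PFKFB3, a form with strong kinase activity, was at 44.6, 38.3 and 44.6 CPM on day 0 and at 87.9, 88.2 and 91.5 CPM on day 1, a 2.10-fold rise. It fell from 129 ± 5.5 CPM on day 9 to 86.2 ± 9.9 CPM on day 15 (log2 change -0.58 ± 0.10, adjusted p = 1.1e-05). PFKFB4 went the other way on day 1, from 43.9, 42.7 and 42.2 CPM to 13.2, 14.9 and 15.9 CPM, and then stayed between 11.9 and 18.6 CPM.

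Aldolase splits the 6-carbon sugar. ALDOC, the brain isozyme, was at 30.2, 30.5 and 31.1 CPM on day 0, at 6.64, 5.98 and 5.49 CPM on day 1 and at 25.1, 23.7 and 22.8 CPM on day 8. It fell 5.05-fold on day 1 and rose 3.30-fold from day 4 to day 8 (log2 change 1.72 ± 0.10, adjusted p = 4.4e-17), then fell 2.09-fold to day 14. ALDOA, the major form, fell from 677 ± 11 to 420 ± 5.7 CPM on day 1 and differed by no more than 1.18-fold in the 5 later comparisons of 2 days. ALDOC was 3.78% ± 0.19 of the 2 genes' TPM on day 8. ALDOC overlaps another gene model at 5.33 TPM on day 0 and 2.45 TPM on day 15, which was 50.9% of their joint TPM on day 1, so its lowest levels are uncertain. The promoter window of ALDOC, on the minus strand, holds matches that begin 240, 239 and 28 bases before the start. The first 2 are the 2 strands of 1 E-box. The stretch of 30 bases printed here, chr17:28577116-28577145, holds its E-box, which begins 240 bases before the RefSeq start. The stretch lies inside the gene model of ALDOC (chr17:28573115-28577264), so it is not upstream of that model. Unlike the stretches of HK2, it is not known to lie outside exons.
ALDOC: aagtgcccggCACGTGgtaaagggattgtg

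The remaining steps of upper glycolysis moved less. GPI, which makes fructose 6-phosphate, fell from 299 ± 4.0 CPM on day 0 to 207 ± 3.1 on day 1, and its later day means lay between 167 and 191 CPM. TPI1, which interconverts the triose phosphates, was at 549 ± 18 CPM on day 0, 434 ± 29 on day 4, 333 ± 7.4 on day 8 and 284 ± 4.3 on day 15. Its fall was called from day 1 to 4, from day 4 to 8 and from day 9 to 15.

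**Figure D3:**
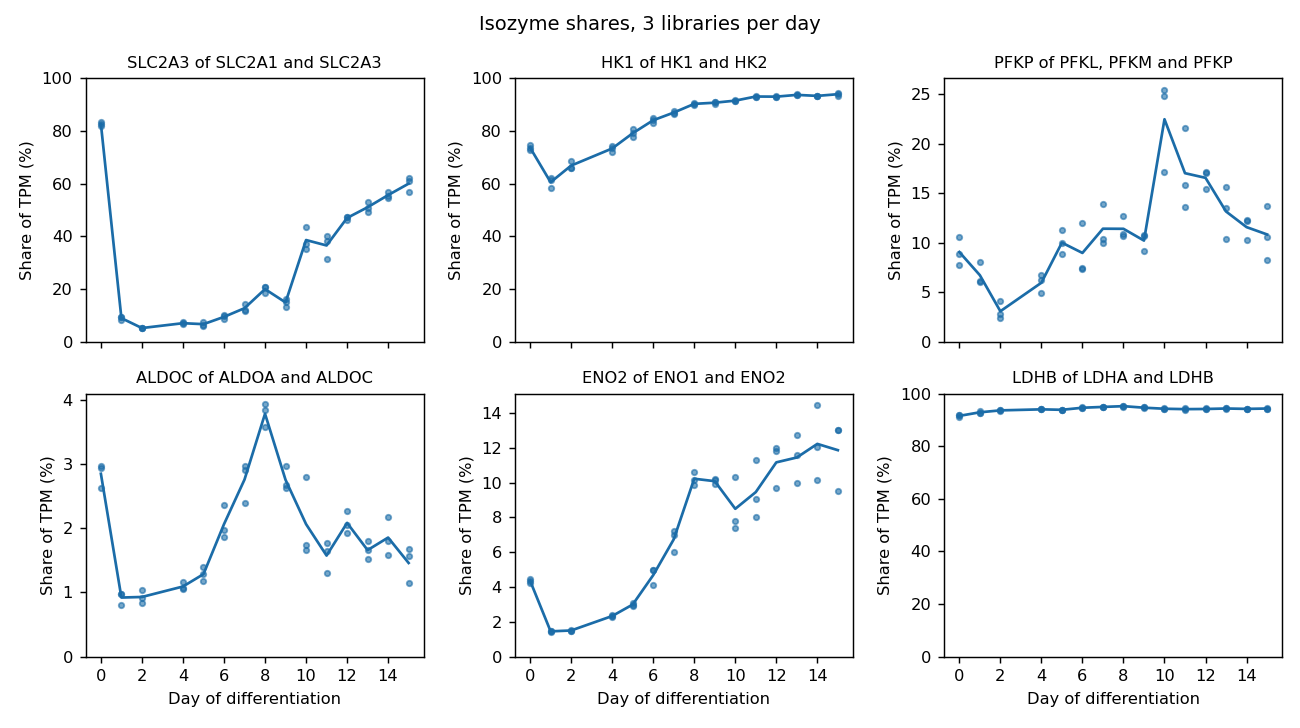
Share of TPM held by 1 isozyme of each pair or trio, in percent, by day; points are libraries (3 per day) and lines join day means, with axes from 0. HK1 rose from 60.6% on day 1 to 94.0% on day 15 and ENO2 from 1.46% to 11.9%, SLC2A3 fell from 82.7% to 8.95% on day 1 and returned to 60.0%, PFKP peaked on day 10 at 22.5%, and LDHB stayed between 91.5% and 95.2%.

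Lower glycolysis held the most abundant of the 32 genes. GAPDH, which oxidises glyceraldehyde 3-phosphate, was at 4745 TPM on day 0 and 3191 TPM on day 15, ENO1 at 1490 and 811 TPM, and PKM at 1164 and 684 TPM. Enolase makes phosphoenolpyruvate, and ENO1, its ubiquitous form, was at 1613, 1557 and 1648 CPM on day 0 and rose to 2223, 2204 and 2303 CPM on day 1 (1.40-fold). It fell to 1823, 1601 and 1686 CPM on day 4, 1130, 1097 and 1044 CPM on day 8 and 719, 679 and 792 CPM on day 15. The levels on days 1, 4, 8 and 15 did not overlap.

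ENO2, the neuron-specific enolase used as a marker of neurons, had the opposite course. It fell from 93.4, 93.9 and 94.3 CPM on day 0 to 43.8, 38.8 and 43.5 CPM on day 1. It was at 53.8, 49.1 and 55.2 CPM on day 4 and at 167, 159 and 165 CPM on day 8, a 3.11-fold rise (log2 change 1.63 ± 0.08, adjusted p = 2.6e-19). After day 8 it lay between 128 and 152 CPM. The share of ENO2 in the pair was 4.36% ± 0.11 on day 0, 1.46% ± 0.047 on day 1, 10.2% ± 0.38 on day 8 and 11.9% ± 2.0 on day 15, so ENO1 remained the larger part throughout. Between days 4 and 8 the 6 neuron markers all rose (summed 1472 to 1564 CPM on day 4 and 3713 to 4128 CPM on day 8) and the 6 cell cycle markers all fell (3044 to 3194 and 1981 to 2056 CPM). What part these had in the changes of HK1, HK2, ALDOC, ENO1 and ENO2 was not tested.

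The remaining enzymes of lower glycolysis declined over the course. GAPDH fell from 3505, 3422 and 3574 CPM on day 0 to 1980, 1903 and 1968 CPM on day 15, and its falls from day 4 to 8 (1.21-fold), day 8 to 14 (1.196-fold) and day 9 to 15 (1.22-fold) were called. PKM, the last enzyme, which makes pyruvate, was at 1562 ± 41 CPM on day 0, 1475 ± 82 on day 4, 1023 ± 45.5 on day 8 and 779 ± 36 on day 15. PGAM1, a mutase, fell from 700 ± 14 CPM on day 0 to 603 ± 11 on day 1 and 301 ± 5.7 on day 15. PGK1, a kinase that makes ATP and a frequent hypoxia target, fell from 321 ± 12 CPM on day 0 to 251 ± 3.9 on day 1 and had means of 251 to 272 CPM on days 4 to 11. From day 9 to day 15 all 6 genes of lower glycolysis were called lower, beside 25% of all genes. The call of ENO2 was lost without replicate 1 (edgeR, adjusted p = 0.069) or replicate 3 (0.32).

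Pyruvate has several fates. Lactate dehydrogenase converts it to lactate, and LDHA, the subunit that favours lactate and that HIF raises, was at 158, 145 and 137 CPM on day 0, 130, 129.5 and 116 CPM on day 1, 82.6, 78.0 and 77.8 CPM on day 4 and 59.1, 59.2 and 59.5 CPM on day 8. Its fall from day 1 to day 4 was 1.57-fold and that from day 4 to day 8 1.34-fold, after which it lay between 59.4 and 67.7 CPM. LDHB, the subunit of heart and neurons, was at 1614 TPM beside 150 TPM of LDHA on day 0, and at 1119 beside 67.8 TPM on day 15. It fell too, from 1204 ± 31.5 CPM on day 1 to 924 ± 44 on day 4, and the LDHB share moved only from 91.5% ± 0.50 on day 0 to 95.2% ± 0.20 on day 8. The pyruvate dehydrogenase kinases keep pyruvate out of mitochondria. PDK1, a HIF target, fell 2.26-fold on day 1, from 33.8, 32.2 and 28.9 CPM to 14.1, 15.4 and 12.3 CPM, and rose 1.34-fold from day 4 to day 8. PDK3 differed by no more than 1.29-fold in the 6 comparisons of 2 days, with means from 19.0 to 26.5 CPM.

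The hypoxia-response genes did not form 1 pattern. CA9, the carbonic anhydrase that is close to silent without HIF, had 0 counts in 16 of 45 libraries and at most 0.212 CPM, where 3 counts, the limit that a count of 0 allows, correspond to 0.0768 to 0.131 CPM by library. ANKRD37, a small ankyrin repeat protein induced by HIF, lay between 0.222 and 0.693 CPM. ADM, the vasodilator adrenomedullin, lay between 0.527 and 3.27 CPM, with its highest mean on day 5, at 2.58, 3.10 and 3.16 CPM. CA9 was thus at or near the limit of detection, and the other two were low in every library.

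BNIP3, a mitophagy receptor, was the one of the group that clearly fell on day 1, from 40.4, 39.2 and 34.7 CPM to 20.5, 20.2 and 17.9 CPM (1.95-fold, adjusted p = 4.5e-16). It was at 27.7 ± 0.20 CPM on day 9 and 23.9 ± 0.21 on day 15. NDRG1, a stress-responsive gene, rose 8.59-fold on day 1, from 2.12, 2.11 and 2.17 CPM to 18.1, 19.1 and 17.9 CPM, the largest rise of the members in that comparison. It fell by 0.77 on the log2 scale between days 9 and 10, from 15.8, 15.0 and 15.6 CPM to 9.27, 10.2 and 7.65 CPM, and reached 5.82 ± 0.15 CPM on day 15. The direction of NDRG1 was therefore opposite to that of BNIP3 on day 1 and opposite to that of VEGFA on day 10.

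VEGFA, the angiogenic growth factor, was at 31.04, 31.09 and 29.6 CPM on day 0 and 41.2, 43.2 and 42.2 CPM on day 2, fell to 20.4 ± 1.9 CPM on day 7, and went from 22.6, 24.7 and 25.0 CPM on day 9 to 44.4, 36.8 and 42.3 CPM on day 10 (1.71-fold, adjusted p = 7.2e-07). The 2 groups did not overlap. On day 14 it was 1.55-fold above day 8.

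EGLN3 (chr14:33924231-34462774) encodes the prolyl hydroxylase PHD3, which marks HIF alpha subunits for degradation and is itself induced by HIF. It was between 1.86 and 4.67 CPM in all libraries up to day 9, at 7.10, 9.45 and 7.86 CPM on day 10, at 19.96, 19.88 and 18.3 CPM on day 12 and at 38.3, 49.6 and 36.3 CPM on day 14. Day 10 lay above day 9 without overlap (2.81-fold, adjusted p = 1.1e-05), and day 14 was 13.5-fold above day 8 (log2 change 3.76 ± 0.23, adjusted p = 1.7e-15). Day 15 was 12.9-fold above day 9. On days 13 and 15 the replicate 3 libraries were low, at 18.1 CPM beside 31.2 and 30.2 CPM and at 24.2 CPM beside 39.7 and 48.1 CPM, and still above every library before day 12. Per length, EGLN3 went from 2.65 TPM on day 9 to 36.7 TPM on day 15. The gene model of EGLN3 spans SPTSSA, which was at 14.4 TPM on day 0 and 17.2 TPM on days 9 and 15. The glial markers rose over the same days, from a sum of 104 to 107 CPM on day 8 to 256 to 307 CPM on day 14, with 3 of 6 higher and 2 lower. Of these SLC1A3 was at 183 CPM on day 15 while GFAP and AQP4 were at 0.0519 and 0.625 CPM. The part of glial cells in the rise of EGLN3 was not tested.

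The stretch before the start of EGLN3, chr14:33951082-33951324 on the minus strand of GRCh38.p14, is shown because EGLN3 had the largest late rise. It holds no ACGTG on either strand, so it has no capitals, and this says only that the letters are not in this window.
EGLN3: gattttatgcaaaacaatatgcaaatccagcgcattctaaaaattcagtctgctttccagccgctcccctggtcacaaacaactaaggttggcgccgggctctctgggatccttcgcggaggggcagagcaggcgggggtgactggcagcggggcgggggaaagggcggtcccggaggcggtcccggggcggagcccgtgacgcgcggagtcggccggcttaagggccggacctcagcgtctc

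**Figure D4:**
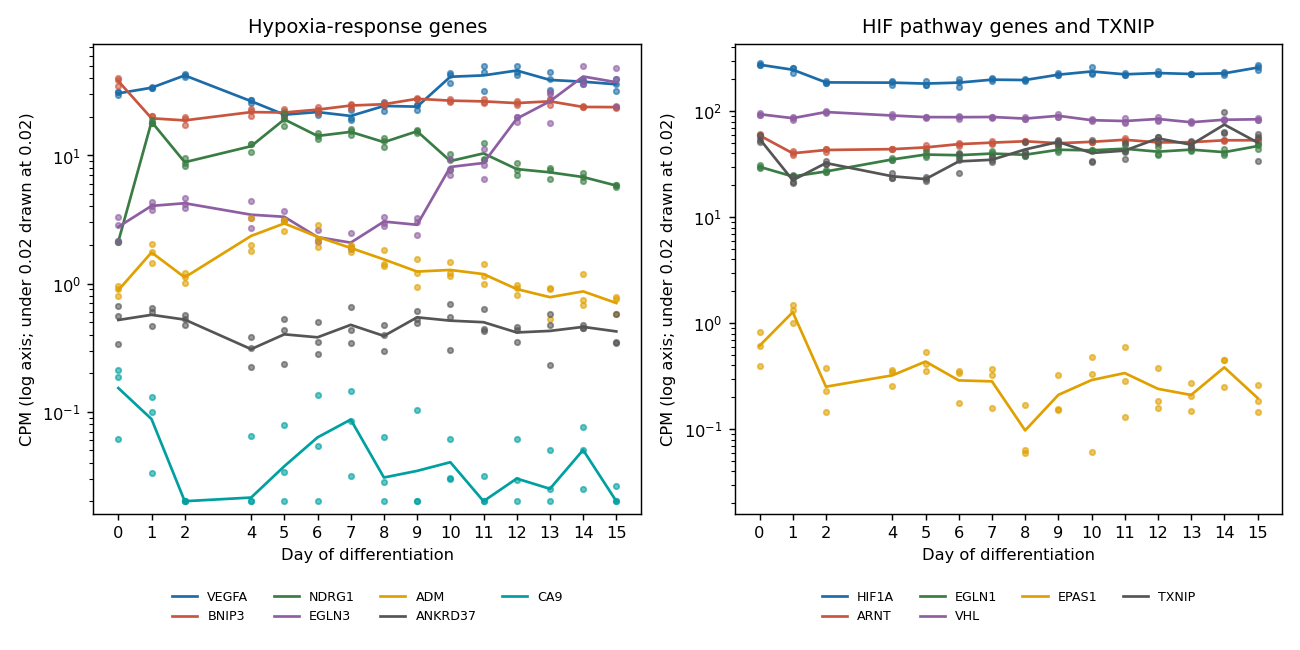
CPM (log axes) by day of the 7 hypoxia-response genes (left) and of HIF1A, ARNT, EGLN1, VHL, EPAS1 and TXNIP (right); points are libraries, 3 per day, lines join the day means, and values under 0.02 CPM are drawn at 0.02. EGLN3 rose from 2.88 CPM on day 9 to 41.4 CPM on day 14 while CA9, ANKRD37 and ADM stayed low, and HIF1A lay between 182 and 275 CPM.

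HIF1A, the widely expressed alpha subunit that is controlled mainly at the protein level, was at 275 ± 6.5 CPM on day 0, 187 ± 4.0 on day 2 and 258 ± 12.6 on day 15. EPAS1, the alpha subunit of endothelial and other specialised cells, did not pass 1.49 CPM in any library. ARNT, their partner, fell 1.47-fold on day 1 and EGLN1, the main oxygen sensor, rose 1.45-fold from day 1 to day 4. VHL had day means between 78.7 and 98.3 CPM. Of the 12 genes of the HIF pathway list, 5 rose and 6 fell on day 1, beside 30.1% and 31.7% of all genes. From day 4 to day 8, 3 of them rose and 7 fell, beside 27.1% and 26% of all. From day 9 to day 10, 3 of the 12 changed, beside 29.6% of all genes, and all 3 were lower, among them ARNT2 (log2 change -0.22 ± 0.04) and VHL (-0.14 ± 0.04).

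Among 30 other hypoxia targets, which are no members of the 32, 5 rose and 15 fell on day 1 (median log2 change -0.21), beside 30.1% and 31.7% of all genes, with AK4, an adenylate kinase, at 26.7 and 8.32 CPM and PLOD2, a collagen lysyl hydroxylase, at 17.9 and 6.76 CPM on days 0 and 1. From day 4 to day 8, 20 rose and 3 fell (median 0.52), beside 27.1% and 26% of all genes, led by the MYC antagonist MXI1 from 18.7 to 47.2 CPM. From day 9 to day 10, 14 rose and 5 fell (median 0.28), beside 15.9% and 13.7% of all, led by the transcription factor BHLHE40 (6.49 to 18.4 CPM), PLOD2 (10.7 to 26.2 CPM) and AK4 (8.35 to 18.8 CPM). From day 8 to day 14, 14 rose and 3 fell, beside 21.6% of all in either direction, and PLOD2 reached 40.9 CPM, 5.06-fold above day 8. Of the 31 members tested, most of them not hypoxia genes, 14 had fallen and 3 had risen between the same libraries. Of the 6 hypoxia genes tested among the members, 2 had risen and 2 had fallen (median 0.08).

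**Figure D5:**
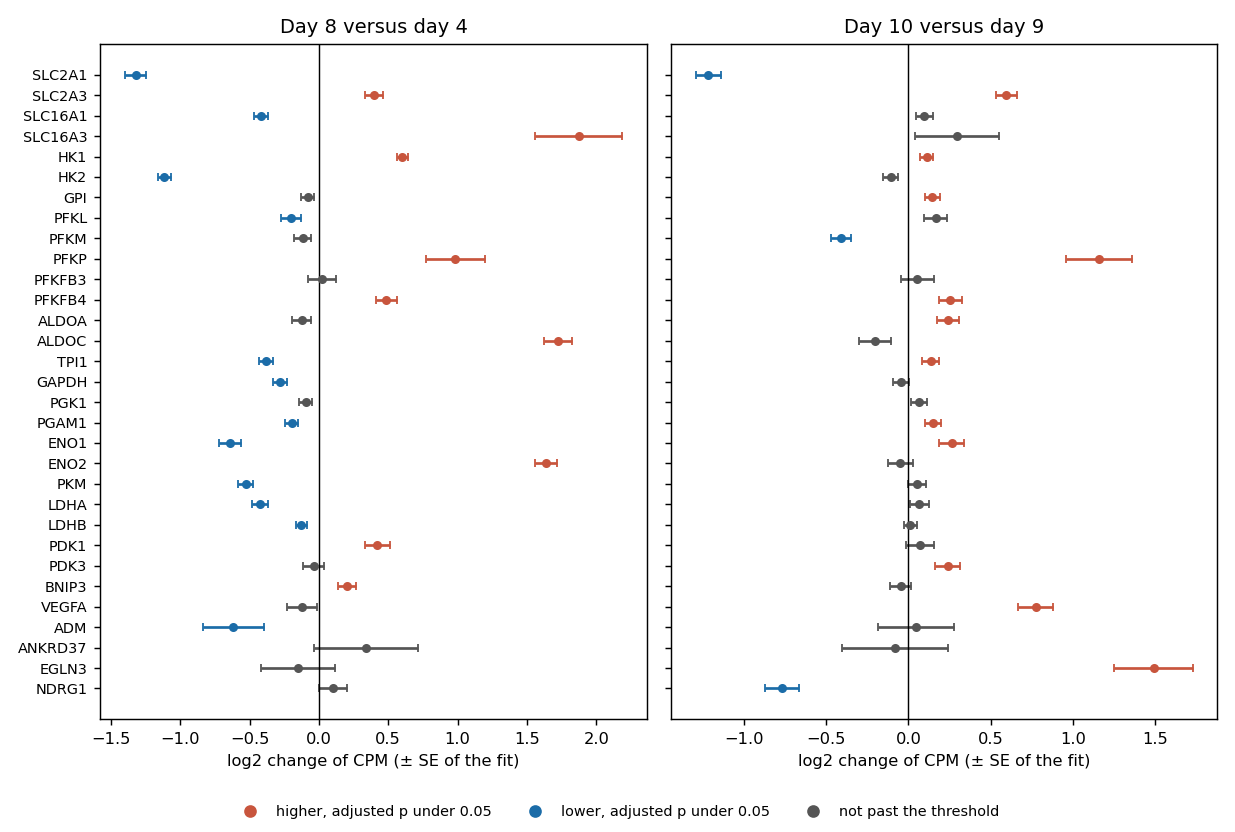
Log2 change in CPM with the SE of the fit for the 31 genes tested, from day 4 to day 8 (left) and from day 9 to day 10 (right), coloured by whether the adjusted p was under 0.05. SLC2A1 fell in both (-1.32 and -1.22), ALDOC and ENO2 rose in the first (1.72 and 1.63), and EGLN3, PFKP and VEGFA rose in the second (1.49, 1.16 and 0.77).

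The step from day 9 to day 10 moved the members unevenly. EGLN3, PFKP, VEGFA and SLC2A3 rose, and SLC2A1, NDRG1 and PFKM fell, as given above. The other 8 calls were rises of 1.08-fold to 1.2-fold in HK1, GPI, TPI1, PFKFB4, ALDOA, PGAM1, ENO1 and PDK3. All 8 were lost without replicate 1. In that replicate ENO1 was at 1268 CPM on day 10, beside 1048 and 1228 CPM in the other libraries of the day. ALDOA was at 524 CPM there, beside 422 and 473 CPM. Why the calls were lost was not tested. Without replicate 1, 7 of 31 were called, 4 higher and 3 lower, beside 14.2% of all genes in place of 29.6%. In the same step the 6 neuron markers all fell (summed 4425 to 4950 CPM on day 9 and 2501 to 3616 CPM on day 10), and so did 4 of the 6 neural progenitor markers (3082 to 3166 and 2266 to 2548 CPM). The part of these cell types in the step was not tested. Outside the 32 genes, 9 of 10 genes of the amino acid response rose, beside 15.9% of all genes, among them CHAC1, a glutathione-degrading enzyme (5.70 to 15.0 CPM), ATF3, a stress-induced transcription factor (18.7 to 39.0 CPM), and TRIB3 (10.2 to 20.3 CPM). Of 6 genes of serine synthesis, which branches from glycolysis at 3-phosphoglycerate, 4 rose, led by MTHFD2 (61.1 to 86.6 CPM) and PSAT1 (158 to 206 CPM). The TCA cycle list had 3 of 18 higher and 2 lower, beside 15.9% and 13.7% of all genes.

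Regulators of glucose use were followed by the same lists. TXNIP, an inhibitor of glucose uptake that responds to glucose, fell on day 1 from 55.0 ± 3.8 to 22.4 ± 2.0 CPM, rose to 43.6 ± 6.8 on day 8 and was at 74.8 ± 20.8 on day 14. MYC, an activator of glycolytic genes, was at 4.99 ± 0.45 CPM on day 0, 26.1 ± 1.2 on day 1, 24.2 ± 0.44 on day 9, 37.9 ± 10.4 on day 10 and 14.9 ± 4.8 on day 15. MYCN, its relative in neural progenitors, rose 1.56-fold on day 1 and fell 1.48-fold from day 9 to day 15. Of the other glycolytic isozymes, 16 of 25 passed the filter on low counts. On day 1, 11 of these fell and 1 rose, beside 31.7% and 30.1% of all genes, and the kinase PFKFB2 went from 24.1 to 6.88 CPM. Beside the members' 15 of 31 that fell on day 1, and the same 31.7% of all genes, the pentose phosphate list had 4 of 8 lower, serine synthesis 5 of 6, pyruvate entry 5 of 10 and the TCA cycle 11 of 18, where IDH2 rose from 174 to 403 CPM.

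Medium was replaced every other day, per the labels, so odd and even days were compared, with a linear trend over days removed. From day 4 to day 9, 6 of 31 genes were called, 2 higher and 4 lower on odd days, beside 3.47% of all genes (1.45% higher, 2.02% lower). From day 10 to day 15, 4 were called, all lower on odd days, beside 5.33% of all (1.64% higher, 3.69% lower). These were EGLN3 (log2 difference -0.42 ± 0.12), ALDOC (-0.21 ± 0.06), HK2 (-0.18 ± 0.03) and SLC2A3 (-0.15 ± 0.04). HK2 had means of 30.9, 23.8, 24.7, 22.5, 24.1 and 20.01 CPM on days 10 to 15, so each odd day lay below the even days on either side. In the earlier window NDRG1 was higher on odd days (log2 difference 0.38 ± 0.06) and ENO2 lower (-0.24 ± 0.05). In both windows the odd and even libraries of these genes overlapped. The same held for all genes tested in the earlier window and for all but 0.206% in the later. From day 10 to day 15, 3 of 6 cell cycle markers were also called lower on odd days (median of the summed level 1543 CPM on odd and 1692 CPM on even days), and so were 4 of 9 glucose and MYC regulators. Their part in the 4 calls was not tested. The odd minus even difference itself changed between the windows for 1 gene, HK2, beside 0.777% of all genes. The later count fell to 0 without day 11 (edgeR, with 3 at an unadjusted p under 0.05), beside 0.705% of all genes. It fell to 1 without replicate 1, replicate 3 or day 12, beside 1.04%, 1.48% and 3.45% of all. The earlier count fell to 1 without day 8, day 9 or replicate 1, beside 0.0309%, 0.515% and 0.118% of all genes. It fell to 2 without day 5 (1.85% of all) and to 3 without replicate 2 (0.848%). With the trend kept, 15 genes were called in the earlier window and 8 in the later, beside 19.7% and 15.5% of all. Only HK2 kept its later call without each replicate in turn, and it lost it without day 11 (adjusted p = 0.086). The labels do not say on which days the medium was replaced, so the alternation cannot be assigned to it.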

How the data were processed

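RNA of 45 libraries was measured, 3 on each of 15 days. Per the submitters' processing notes, reads were handled with bcl2fastq 2.20.0 and RSEM against GRCh38. For the aligner, annotation and strand setting the entry is: not given in the sources used here. The deposited expected counts, which RSEM estimates and which share reads between similar genes, were rounded to whole numbers (92.5% were whole already). The TPM values are the authors' deposited values and were used for levels between genes, for isozyme shares and for 1 alternative. Gene models came from GENCODE 29 (338 genes had none, with 0.0276% of counts), and promoter windows from RefSeq on GRCh38.p14.

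Counts were scaled by TMM (factors 0.925 to 1.06), filtered with edgeR's filterByExpr and tested with edgeR 4.0.16 (R 4.3.3), by quasi-likelihood over all 45 libraries with a mean for each day (30 residual degrees of freedom), with Benjamini-Hochberg adjustment over 19436 genes. The 32 genes and all lists were chosen with earlier results of these data known. All 32 are named by role, and from other lists up to 3 called genes with the largest change and at least 10 CPM, beside 8 regulators that are always named. The alternatives were DESeq2 1.42.0, limma 3.58.1 on log2(TPM + 1), other size factors, no filter, a replicate block, leaving out each replicate or day, the trend kept, a 1.5-fold minimum and shares from CPM. The test was checked on simulated data. Replicates of a day differed by more than counting noise in all days.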

Additional observations from a re-analysis of the deposited data

Results flagged for a closer look

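The difference between odd and even days changed between the earlier and the later window for 1 of the 31 genes, HK2, beside 0.777% of all genes tested. Its odd minus even log2 difference was 0.03 ± 0.03 from day 4 to day 9 and -0.18 ± 0.03 from day 10 to day 15, a change of -0.21 ± 0.04 (edgeR, adjusted p = 0.011). The adjusted p was 0.56, 0.15 and 0.072 without replicate 1, 2 or 3, 0.13 with limma on TPM and 0.0012 with DESeq2.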

How the results depend on the processing

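The replicate numbers did not pair the libraries (median correlation 0.0016 over 315 same-number pairs, 13 of them over 0.1, and 19 of 45 libraries closest to their own number). With the replicate block, 14 in place of 15 genes were called from day 9 to day 10, where TPI1 was lost, and BNIP3 and ANKRD37 were lost from day 1 to day 4; no count moved by over 1.5 times. With a 1.5-fold minimum the counts were 12, 6, 9, 6, 6 and 8, beside 32.7%, 21.7%, 23.7%, 10.2%, 16.8% and 18.4% of all genes. The order is that of the comparisons above (days 1 and 0, 4 and 1, 8 and 4, 10 and 9, 14 and 8, 15 and 9). Both comparisons of odd and even days had 0, beside 0.268% and 0.314% of all genes. Leaving out 1 replicate gave 7 to 13 calls from day 9 to day 10, beside 14.2% to 27.3% of all genes. Between odd and even days it gave 1 to 6 calls up to day 9 (0.118% to 3.08% of all). After day 9 it gave 1 to 3 (1.04% to 3.09% of all). No call from day 0 to day 1 was lost this way, while 6, 4, 8, 3 and 3 were lost in the other comparisons of 2 days. For odd and even days up to day 9 the count was 15 with the trend kept, 2 without day 5, 1 without day 8, 1 without day 9 and 3 with limma. The shares of all genes were 19.7%, 1.85%, 0.0309%, 0.515% and 1.60% in the same order. After day 9 the count was 8 with the trend kept, 0 without day 11, 1 without day 12, 1 with only the libraries of those days and 2 with limma. Here the shares were 15.5%, 0.705%, 3.45%, 1.70% and 3.65%. With the trend kept, ALDOC (0.065) and ENO2 (0.13) up to day 9 and EGLN3 (0.14) after it changed sign, because a trend over days then enters the difference. LDHB from day 4 to day 8 had a log2 change of 0.0019 with limma on TPM; the cause was not tested. On day 8, shares from CPM were 83.0% for HK1, 32.5% for PFKL, 5.55% for ALDOC, 13.1% for ENO2, 93.4% for LDHB, 0.468% for SLC16A3 and 41.4% for PDK1, and the SLC2A3 share with pseudogenes added was 25.8%.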
